A study of Mus musculus with 6 samples.

Results

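The 10 genes described here lie within 1 Mb of Prss54 on mouse chromosome 8: 1700121C10Rik, Arl2bp, Ciapin1, Tepp, Ccl17, Cx3cl1, Zfp319, Ccdc113, Gins3 and Cnot1. They are 10 of 27376 gene names on the array, and were read by 15 probes, all of them gene probes carrying one of these names. The genes were chosen by position and from the genotype comparison itself, so the differences between the genotypes below are descriptions and carry no test. Testis RNA came from 6 male mice aged 6 to 8 weeks on a mixed 129Sv and C57BL/6 background, 3 WT mice and 3 Prss54KO mice, with 1 array for each mouse. The part of Prss54 that was removed, the litters and the strain origin of chromosome 8 in each mouse are not stated in the sources used here.

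Prss54 encodes a protein of the serine protease family. Genes that neighbour each other on a chromosome are inherited together unless recombination separates them. The flanking genes have different jobs. Cx3cl1 and Ccl17 encode chemokines, Ciapin1 acts in the assembly of iron-sulfur proteins in the cytosol, Arl2bp and Ccdc113 encode proteins of cilia and flagella, Gins3 is a subunit of the GINS complex of the replicative helicase, and Cnot1 is the scaffold of the CCR4-NOT deadenylase. In this design an effect of the disrupted gene and a difference inherited with the surrounding chromosome cannot be told apart.

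The 6 arrays came from 3 slides that were scanned one by one. Slide 3 carried WT replicates 1 and 2. Slide 2 carried both genotypes, WT replicate 3 beside Prss54KO replicates 1 and 2, and slide 1 carried Prss54KO replicate 3. A difference given for slide 2 alone therefore rests on 1 WT mouse, WT replicate 3. Values are normalized signals, that is, spot brightness in intensity units after every array was brought to the same 75th percentile. Each difference is a log2 value, Prss54KO less WT, with the moderated standard error (SE) of the fit over all probes. Folds and percentages of WT come from this difference, so they can depart from the ratio of the printed means. On each array 66.2% to 74.8% of the 43379 gene spots exceeded background clearly, 0 were saturated, and the arrays correlated at r of 0.994 to 0.996 over probes. All 12 germ cell markers of the testis were well above background on all 6 arrays, with a mean log2 level of 5.33 to 5.41 in WT and 5.30 to 5.42 in Prss54KO. Of 6 epididymis markers, 4 (Lcn5, Lcn8, Crisp1 and Spink12) were not well above background on any array. The mean log2 level of the other 2 lay between -3.73 and -3.20 in WT and between -3.18 and -2.98 in Prss54KO, and the part of this shift in the results below was not tested. The whole testis was measured, so fewer cells of a type and less RNA per cell cannot be told apart.

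The targeted gene was read by a single probe at chr8:98082993-98083052 (mm9, minus strand). Its normalized signal was 23170, 25138 and 25327 in WT and 7308, 9442 and 8264 in Prss54KO. Each Prss54KO mouse was lower than each WT mouse. The log2 difference was -1.56 (SE 0.10), which places Prss54KO at 33.8% of WT. The probe stayed well above background on all 6 arrays. Whether it lies inside the removed part is not stated in the sources used here. In limma it ranked first of 28913 tested probes, with an adjusted p of 0.108. No probe of the array passed an adjusted p of 0.05 (0% of those tested), while 926 probes, or 3.2%, had an unadjusted p under 0.05.

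Of the 15 flanking probes, 13 were well above background on at least 3 arrays and entered the fit. The other 2, 1 each for Cx3cl1 and Ciapin1, were not well above background on any array. The 3 Prss54KO mice were all higher than the 3 WT mice for 3 of the 13 probes, against 4.21% of all tested probes, and all lower for 5 of the 13, against 3.6%. Because the genes were chosen from this comparison, these shares are only set side by side. The 13 differences had a median of -0.03 and a median size of 0.20, where all tested probes had 0.01 and 0.06. Of the 13 differences, 5 were above 0 and 8 below. The plot of every mouse shows the 13 probes from the lowest coordinate to the highest.

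**Figure D1:**
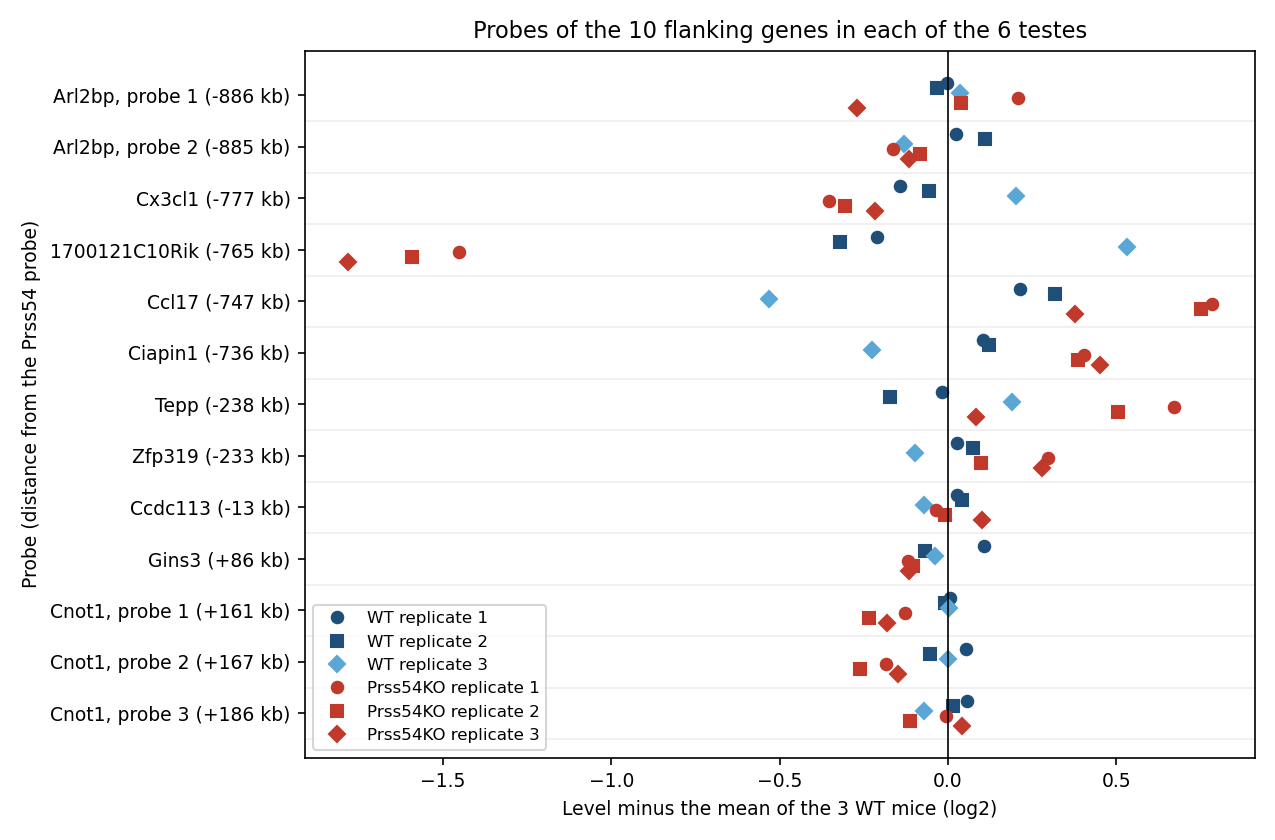
Log2 level of each tested probe of the 10 genes in each mouse, minus the mean of the 3 WT mice (horizontal axis), with probes ordered by their signed distance from the Prss54 probe in kb (vertical axis). Each marker is 1 mouse, blue for WT and red for Prss54KO. 1700121C10Rik lies farthest to the left in Prss54KO, with a mean difference of -1.61, and Ccl17 farthest to the right, with 0.64.

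Distances in the following are signed from the start of the Prss54 probe, negative towards lower coordinates. The gene with the widest gap between the genotypes was 1700121C10Rik, a transcript known by the name of its RIKEN cDNA clone and without an entry in the RefSeq gene table used here. Its probe lies at chr8:97318136-97318195 (mm9, minus strand), -764.9 kb from Prss54, and is shown because this single sequence carries the difference.

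1700121C10Rik probe: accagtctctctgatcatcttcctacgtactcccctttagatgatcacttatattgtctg

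The normalized signal of this probe was 1889, 1750 and 3161 in WT and 799, 725 and 635 in Prss54KO. The Prss54KO mice all lay below every WT mouse, while WT replicate 3 stood far above the other 2 WT mice. The mean was 2266 ± 778 in WT and 720 ± 81.7 in Prss54KO (SD, n = 3 each). The log2 difference was -1.61 (SE 0.23), which places Prss54KO at 32.8% of WT, or 3.05-fold lower. On slide 2 alone the log2 difference was -2.06. Leaving out 1 mouse at a time moved it between -1.77 and -1.34. A single probe read this gene, so no second probe bears on the value.

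The chemokine genes lie on both sides of 1700121C10Rik and went in opposite directions. Cx3cl1 encodes fractalkine, a chemokine made as a membrane protein and released by the proteases ADAM10 and ADAM17, and it binds the receptor CX3CR1. Its probe near the end of the transcript (chr8:97306185-97306244, plus strand, -776.8 kb) gave 830.3, 882 and 1055 in WT and 718, 742 and 789 in Prss54KO. Every Prss54KO mouse was lower than every WT mouse, and the gap to the nearest WT mouse was small. The means were 922 ± 117 and 749.5 ± 36.0 (SD, n = 3 each). The log2 difference was -0.29 (SE 0.10), which is 1.22-fold. The difference was -0.53 on slide 2 alone and -0.19 without WT replicate 3. The other Cx3cl1 probe (chr8:97296742-97296801, -786.3 kb) read at most 9.73 in each of the 6 mice and gives no fold.

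Ccl17, also called TARC, encodes a chemokine that attracts cells bearing the receptor CCR4. Its probe (chr8:97335770-97335829, plus strand, -747.2 kb) gave 996, 1072 and 594 in WT and 1478, 1445 and 1115 in Prss54KO. All Prss54KO mice were higher than all WT mice, with Prss54KO replicate 3 just above WT replicate 2 and WT replicate 3 well below the rest. The means were 887 ± 257 in WT and 1346 ± 201 in Prss54KO (SD, n = 3 each). The log2 difference was 0.64 (SE 0.25), which is 1.56-fold. The difference was 1.30 on slide 2 alone and 0.37 without WT replicate 3.

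The receptors and other chemokines gave no call. Of 20 genes of that list, all named on the array, 13 had a tested probe, none passed the adjusted threshold, and 1 was lower at an unadjusted p under 0.05. That gene was Ackr3, a scavenging chemokine receptor, with a log2 difference of -0.22 (SE 0.08, limma unadjusted p 0.0311, adjusted p 1). Ccl4 had -0.30 (SE 0.17), the CCL17 receptor Ccr4 -0.25 (SE 0.15) and the fractalkine receptor Cx3cr1 -0.19 (SE 0.35), Ccr4 and Cx3cr1 being named as receptors of the members. The median of the 13 was -0.07. Of 10 macrophage and dendritic cell markers, 8 were well above background on all 6 arrays and Itgam on none. The mean log2 level of that marker list was -1.19 to -1.06 in WT and -1.47 to -1.11 in Prss54KO, ranges that overlap.

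Ciapin1 (anamorsin) passes electrons to the machinery that builds iron-sulfur clusters in the cytosol. The tested probe (chr8:97346604-97346663, minus strand, -736.4 kb) gave 32724, 33184 and 26064 in WT and 40339, 39853 and 41616 in Prss54KO. The Prss54KO mice lay within a narrow band above all WT mice, and WT replicate 3 was again the mouse farthest from them. The means were 30658 ± 3985 and 40603 ± 911 (SD, n = 3 each). The log2 difference was 0.41 (SE 0.10), which is 1.33-fold. The difference was 0.62 on slide 2 alone and 0.30 without WT replicate 3. A probe farther along the transcript (chr8:97344837-97344896, -738.2 kb) read 6.24 to 9.64 in all mice and was not well above background anywhere. None of the 13 other genes of cytosolic iron-sulfur assembly had an unadjusted p under 0.05. Their median was 0.01, with Ciao1, a cytosolic targeting factor, at 0.14 (SE 0.14).

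Ciapin1 starts head to head with Coq9, a gene of coenzyme Q synthesis. The RefSeq promoter windows of both, from 250 bases before to 50 after the start in build GRCm38.p6, share 172 bases. The Ciapin1 window (chr8:94838291-94838590, minus strand) is printed 5′ to 3′ with the shared bases in capitals, because these promoter bases serve a gene of the set and a neighbour outside it.

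Ciapin1 promoter: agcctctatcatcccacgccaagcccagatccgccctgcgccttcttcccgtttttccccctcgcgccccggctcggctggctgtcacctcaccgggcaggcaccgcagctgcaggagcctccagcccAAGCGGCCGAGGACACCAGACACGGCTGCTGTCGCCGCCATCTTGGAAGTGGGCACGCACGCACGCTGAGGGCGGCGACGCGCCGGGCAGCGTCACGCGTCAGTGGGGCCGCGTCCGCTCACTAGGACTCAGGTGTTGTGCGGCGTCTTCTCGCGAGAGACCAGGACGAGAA

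Coq9 was read at 1575, 1605 and 1649 in WT and 1781, 1571 and 1776 in Prss54KO. The genotypes overlapped, and the log2 difference was 0.09 (SE 0.07, limma adjusted p 1). The difference between the log2 differences of Ciapin1 and Coq9 was not tested.

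Among the members linked to sperm and cilia, Tepp, a gene named for its expression in testis, prostate and placenta, differed most. Its probe spans an intron (chr8:97844812-97845092, plus strand, -238.2 kb). The signal was 32695, 29358 and 37776 in WT and 52686, 46993 and 35069 in Prss54KO. Prss54KO replicate 3 fell below WT replicate 3, so the genotypes overlapped. The means were 33277 ± 4239 and 44916 ± 8990 (SD, n = 3 each), with a log2 difference of 0.42 (SE 0.17) and 0.40 on slide 2 alone. Ccdc113, a coiled-coil protein of the ciliary base and axoneme, is the nearest member on the lower side, at -13 kb. Its probe also spans an intron (chr8:98069946-98075152). It gave 48880, 49406 and 45697 in WT and 46834, 47715 and 51472 in Prss54KO, with a log2 difference of 0.02 (SE 0.06), and between -0.02 and 0.05 with a mouse left out. The probes of these 2 genes are shown because each was placed in 2 pieces across an intron and so reads spliced RNA.

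Tepp probe: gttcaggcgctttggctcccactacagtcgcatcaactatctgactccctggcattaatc
Ccdc113 probe: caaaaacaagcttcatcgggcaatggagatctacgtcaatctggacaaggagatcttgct

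Arl2bp, which binds the small GTPases ARL2 and ARL3, was read by 2 probes at the far end of the window (chr8:97197099-97197158 and chr8:97198181-97198240, plus strand, -885.9 and -884.8 kb). The first gave 127738, 125071 and 131210 in WT and 147848, 131400 and 106044 in Prss54KO. Its mean was almost equal in the genotypes (log2 -0.01, SE 0.12), but the SD was 21060 in Prss54KO against 3078 in WT. The second gave 57114, 60599 and 51329 in WT and 50151, 53096 and 51871 in Prss54KO (log2 -0.12, SE 0.08). The genotypes overlapped on both probes. Leaving out 1 mouse at a time moved the first between -0.12 (without Prss54KO replicate 1) and 0.12 (without Prss54KO replicate 3), and the second between -0.19 (without WT replicate 3) and -0.07 (without WT replicate 2). Of the 15 genes of the ARL2 and ARL3 pathway, 14 were tested and none had an unadjusted p under 0.05. Their median was 0.02, with Elmod2, a GTPase-activating protein, at -0.09 (SE 0.05) and Unc119, a carrier of lipid-modified proteins, at 0.22 (SE 0.15). The same held for the 19 tested of 24 genes of the sperm axoneme. Their median was 0.05, with Hap1 at 0.10 (SE 0.05) and the tektin Tekt4 at 0.10 (SE 0.06).

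Zfp319, a zinc finger protein, lies beside Tepp (chr8:97850142-97850201, minus strand, -232.9 kb). Its signal was 487, 503 and 446 in WT and 587, 511 and 580 in Prss54KO. The genotypes did not overlap, though Prss54KO replicate 2 was nearly level with WT replicate 2. The log2 difference was 0.22 (SE 0.08), with 0.30 on slide 2 alone and 0.17 without WT replicate 3.

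On the other side of Prss54 lie Gins3 and Cnot1, both lower in Prss54KO by small amounts. The Gins3 probe (chr8:98168645-98168704, plus strand, 85.7 kb) gave 875, 774 and 791 in WT and 747, 756 and 750 in Prss54KO. The Prss54KO mice were nearly identical, with an SD of 4.56 against 54.2 in WT. The log2 difference was -0.11 (SE 0.06), and -0.06 without WT replicate 1. None of 15 other genes of GINS and the replicative helicase had an unadjusted p under 0.05. Their median was -0.02, with the loading factor Cdc6 at 0.08 (SE 0.06) and the helicase subunit Mcm6 at -0.07 (SE 0.06).

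Cnot1 was read by 3 probes in 3 places along its long transcript. The probe nearest the end (chr8:98243614-98243673, minus strand, 160.6 kb) gave 13983, 13819 and 13952 in WT and 12734, 11817 and 12273 in Prss54KO. The WT mice were almost equal and all Prss54KO mice lower, with a log2 difference of -0.18 (SE 0.05). The middle probe (chr8:98249997-98250056, 167 kb) gave 4379, 4068 and 4219 in WT and 3714, 3523 and 3803 in Prss54KO (log2 -0.20, SE 0.06). Again every Prss54KO mouse was lower. The last probe, nearest the transcript's start and placed across an intron (chr8:98268926-98269506, 185.9 kb), gave 592, 575 and 541 in WT and 566, 526 and 585 in Prss54KO. Here the genotypes overlapped, and the log2 difference was -0.03 (SE 0.07), and between -0.06 and 0.02 with a mouse left out. The middle and last probes are shown because they read 1 transcript and gave different sizes, a difference that was not tested.

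Cnot1 middle probe: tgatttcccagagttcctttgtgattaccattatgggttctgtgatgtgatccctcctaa
Cnot1 last probe: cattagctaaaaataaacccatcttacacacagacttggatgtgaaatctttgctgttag

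None of 19 other genes of CCR4-NOT and its deadenylase partners had an unadjusted p under 0.05. Their median was 0.01, with the catalytic subunit Cnot6 at -0.08 (SE 0.07) and the recruiting factor Tob1 at -0.12 (SE 0.12).

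The spread among the WT mice was unequal over these genes. The SD over the 3 WT mice on the log2 scale was above the median of all tested probes (0.09) for 7 of the 13 probes. For 1700121C10Rik and Ccl17 it stood at the 97.3rd percentile of all tested probes in both cases. For the first Cnot1 probe it stood at percentile 1, and the Prss54KO spread of Gins3 at percentile 0.8. The distance of WT replicate 3 from the mean of the other 2 WT mice exceeded the median of all tested probes (0.10) for 9 of the 13 probes.

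Among the 8 flanking probes whose genotypes did not overlap, WT replicate 3 was the WT mouse farthest from Prss54KO for 5, that is, 62.5%. The 5 were 1700121C10Rik, Cx3cl1, Ccl17, Ciapin1 and Zfp319. The same held for 4 of 7 such probes of the other genes in the window (57.1%), in Cngb1, Fam192a and Csnk2a2, and for 484 of 2257 over the whole array (21.4%). WT replicates 1 and 2 therefore lay between WT replicate 3 and Prss54KO. For 1700121C10Rik the mean of WT replicates 1 and 2 was -0.80 from WT replicate 3, and Prss54KO was a further -1.34 below. For Ccl17 the steps were 0.80 and 0.37, for Ciapin1 0.34 and 0.30, for Cx3cl1 -0.30 and -0.19, and for Zfp319 0.15 and 0.17. This order was noticed after the values were seen and is a description. WT replicate 3 shared slide 2 only with Prss54KO mice, and the other WT mice lay on slide 3. Mouse, slide and genotype can therefore not be told apart in this order.

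**Figure D2:**
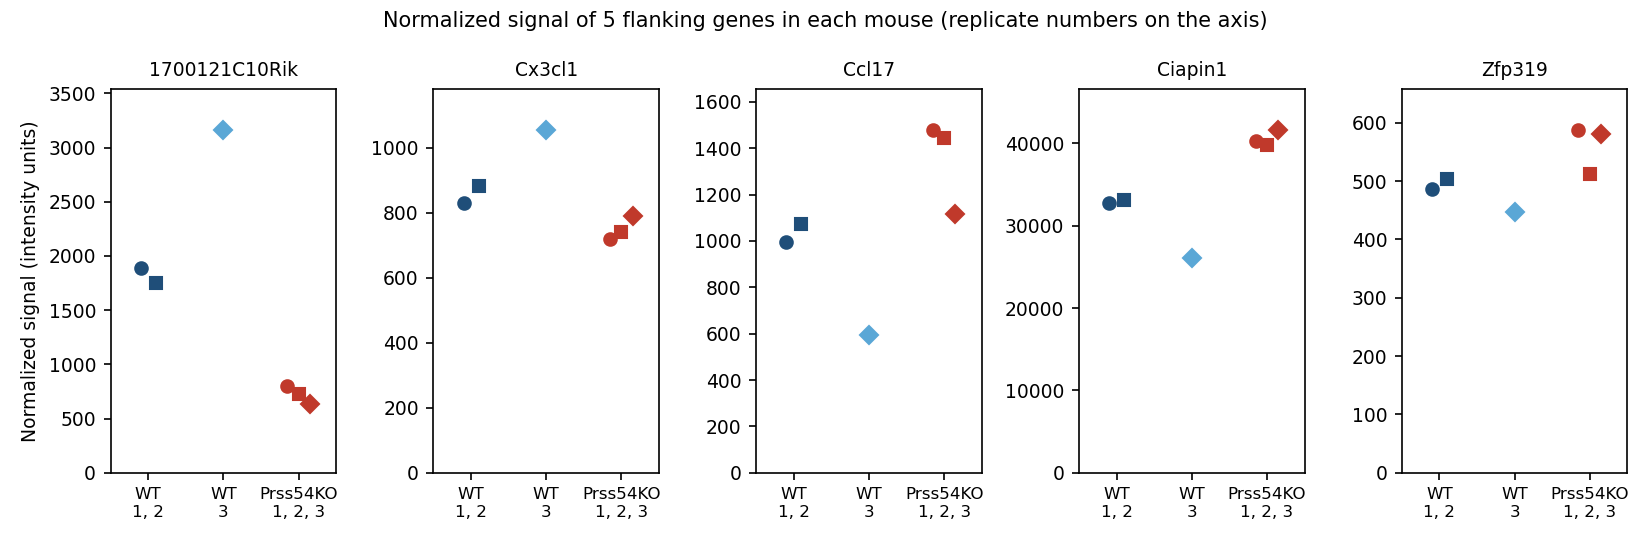
Normalized signal in intensity units (vertical axes from 0, 1 panel for each gene) of the 5 genes in which WT replicate 3 lay farthest from Prss54KO, with mice placed by genotype and replicate (horizontal axis) and 1 marker for each mouse. WT replicates 1 and 2 sit between WT replicate 3 and the Prss54KO mice in each panel, as for 1700121C10Rik with 1889 and 1750 between 3161 and a highest Prss54KO value of 799.

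Besides the 10 members and Prss54, the window holds 30 other genes with 44 probes, of which 36 probes of 24 genes were tested. They are what position leaves once the members, picked from the genotype comparison, are set aside. Results for this window had been seen beforehand, so the shares of these probes are descriptions too. None of the 36 passed the adjusted threshold. At an unadjusted p under 0.05, 3 were higher and 3 lower in Prss54KO, where 3.2% of all tested probes had such a p. The 3 higher ones were probes of Cngb1 and Csnk2a2 only. The genotypes did not overlap for 7 of the 36, or 19.4%, beside 7.81% of all tested probes, and the median size of a difference was 0.08. The 10 flanking genes were picked with results in view, so their larger median size does not set them apart. The neighbour with the highest difference was Cngb1, a subunit of a cyclic nucleotide-gated channel, at -319.7 kb. It read 106, 118 and 96.6 in WT and 185, 210 and 210 in Prss54KO, a log2 difference of 0.92 (SE 0.10, limma unadjusted p 6.06e-05, adjusted p 0.35). A further probe named Cngb1, which the files place on chromosome 5, gave 0.81 (SE 0.06). Csnk2a2, a catalytic subunit of casein kinase 2, gave 0.72 (SE 0.07) and 0.41 (SE 0.07) with 2 probes and 0.02 (SE 0.06) with another. Pllp, a membrane protein read by 2 dim probes that were well above background in only 2 mice of each genotype, gave 0.51 (SE 0.54) and 0.39 (SE 1.30), both smaller than their SE. Slc38a7, an amino acid transporter, gave 0.15 (SE 0.09).

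Among the neighbours with a lower mean in Prss54KO, the smallest p was that of a probe of the kinesin Kifc3, with -0.25 (SE 0.06, limma unadjusted p 0.00384, adjusted p 1), while its other probe gave -0.10 (SE 0.14). The lowest difference, -0.49 (SE 0.18), came from a probe without a gene symbol that was well above background in 1 of 3 Prss54KO mice. The 3 probes of Fam192a gave -0.21 (SE 0.12), -0.20 (SE 0.06) and 0.02 (SE 0.17). Those of Ndrg4 gave -0.16 (SE 0.09) and 0.03 (SE 0.08), and Cpne2 gave -0.15 (SE 0.12). Genes between the flanking members could lie close to 0: 4933406B17Rik, at -58.4 kb, gave 0.10 (SE 0.07), and Usb1, whose promoter window shares 28 bases with that of Zfp319, gave -0.04 (SE 0.08). At the edge of the window, Cpne2 at -988.6 kb gave -0.15 and Nlrc5, just outside at -1038.1 kb, also -0.15. On the upper side the last tested probe was that of Got2 at 305.3 kb, with -0.07, and the next tested one on the chromosome was Cdh11 at 7074.5 kb, with 0.13. The window is therefore filled by tested probes on the lower side and only to 305.3 kb on the upper side.

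**Figure D3:**
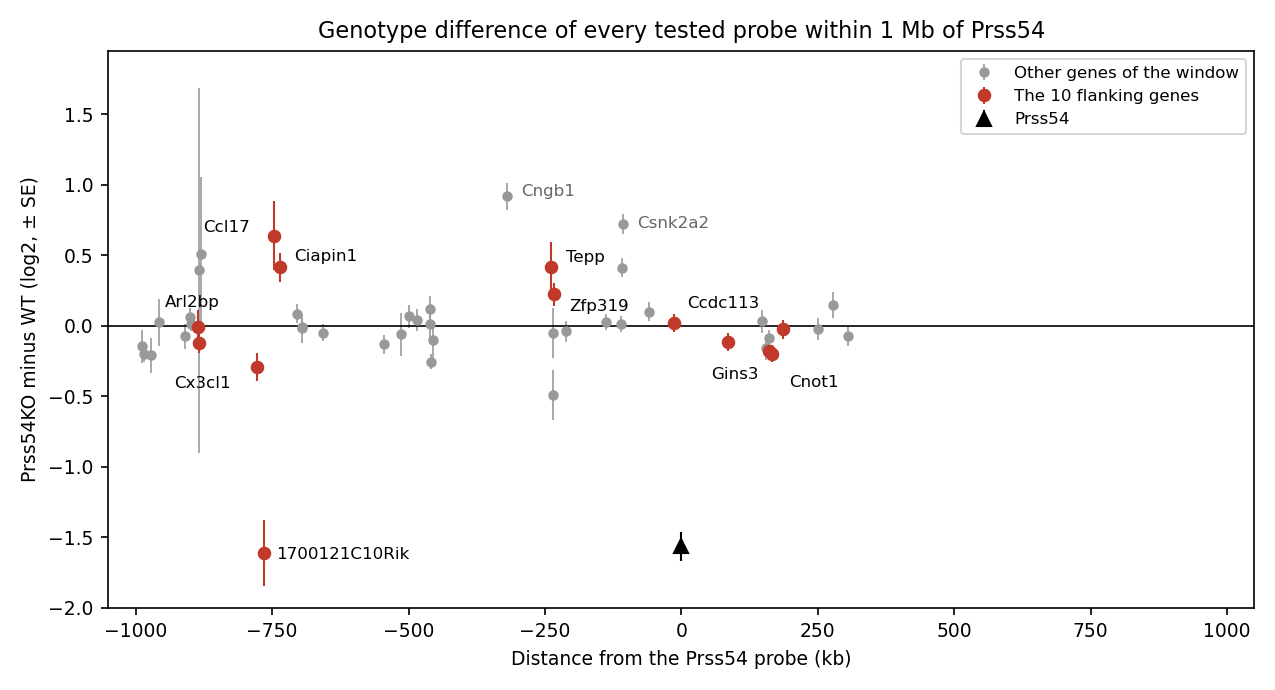
Log2 difference between Prss54KO and WT (vertical axis, points are limma estimates and bars 1 SE) of each tested probe against its distance from the Prss54 probe in kb (horizontal axis). Red points are the 10 flanking genes, grey points the other genes of the window and the black triangle Prss54. Differences of both signs and near 0 occur along the chromosome. Among the 10 genes, those up to 1700121C10Rik lay below 0. Those from Ccl17 to Ccdc113 lay above 0, and Gins3 and Cnot1 below 0. The sign changes between 1700121C10Rik at -1.61 and Ccl17 at 0.64, which are next to each other among the 10 genes.

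The genes whose level followed a member most closely over the 6 arrays lay mostly elsewhere. These correlations rest on 6 arrays that share the genotype groups, and are descriptions. Of 28912 probes, less those of the members, the closest to 1700121C10Rik were Fam120a (r 0.9878) and Rpl7l1 (r 0.9872). For Ccl17 they were Clec4g (r 0.9945) and AK082417 (r 0.9877), and for Tepp Map1b (r 0.9928) and Aspscr1 (r 0.9927). Of the 20 most alike probes, 5 were on chromosome 8 for Ccl17 and 5 for Cx3cl1, 2 for Tepp, Zfp319, Cnot1 and Gins3 each, 1 for Ciapin1 and 0 for the other members. Of all tested probes 5.07% lie on chromosome 8. None of the 20 lay within 1 Mb of Prss54 for any member. Outside the members, that window holds only 36 tested probes besides Prss54, so their absence from lists of 20 says little.

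The promoters of the set differ widely in base content. RefSeq windows of 300 bases were found for 8 members and not for Cnot1 or 1700121C10Rik. CpG pairs numbered 40 in Zfp319, 34 in Ciapin1, 26 in Arl2bp, 21 in Gins3, 19 in Cx3cl1, 15 in Ccdc113, 4 in Tepp and 3 in Ccl17, where the median of all promoters was 7. Motifs were searched on both strands as exact letters. The TATA box TATAAA was found in Cx3cl1 and Ccdc113, and in 13.6% of all 32544 promoter windows. The CCAAT box was in Ccdc113 and Gins3 (37.4% of all), and the GC box GGGCGG in Cx3cl1, Ciapin1, Zfp319 and Gins3 (35.9% of all). The cAMP response element TGACGTCA was in none of the 8 (1.80% of all), and TGACGT, which it contains, was in none either (7.55% of all). Members with a higher mean in Prss54KO had few or many CpG pairs: Ccl17 and Ciapin1, whose Prss54KO mice all exceeded the WT mice, had 3 and 34.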

How the data were processed

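Each of 6 testis RNAs was labelled with Cy3 and hybridised to 1 array. Per the file headers, the deposited scanner files hold spot intensity from Feature Extraction 10.7.3.1 (version 10.7 per the submitters' processing notes). Deposited marks for spots well above background, saturated or outlying (yes or no) were used as they stand. The deposited table of the series holds log2 values with almost the same quantiles in each column (median 7.72), its making is not stated in the sources used here, and it served as an alternative only. Probe positions are those of mm9, per the file headers.

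The level of a probe was the log2 processed signal, less the 75th percentile of its array, averaged over its spots after outlier spots were left out. The normalized signal is the level brought back to intensity units. Of 41174 probes, 28913 were well above background on at least 3 arrays. Genotypes were compared with R 4.3.3 and limma 3.58.1 (two-sided moderated test from lmFit with eBayes, Benjamini-Hochberg over all these probes, threshold 0.05), after a test on simulated data. With 3 mice per genotype and no litters named, p-values set a difference against the spread between these mice. The main fit has no slide term, so mouse and slide are mixed in that spread. The number of arrays limits the precision.

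The members and gene lists were chosen with earlier results of these data known. Text names all probes of the 10 genes and Prss54, the 5 highest and 5 lowest named probes among the other genes of the window, up to 4 genes past the threshold or else 2 with the smallest p in each list, and the 2 genes most like each of 3 members. Genes named beyond these rules were picked for their place or role, and 2 genes that the rules name are not reported here. A list gene was represented by its brightest probe. Lists matched array names by symbol or by RefSeq accession (GRCm38.p6). Other cell marker lists, each as mean log2 level in WT and Prss54KO, were Sertoli (0.42 to 0.45 and 0.41 to 0.51), Leydig (0.98 to 1.28 and 0.99 to 1.03), endothelial (-2.99 to -2.85 and -2.99 to -2.93), peritubular and fibroblast (1.47 to 1.63 and 1.01 to 1.49), red blood cell (0.14 to 0.82 and 0.16 to 0.46) and adipose (-2.50 to -2.16 and -2.75 to -2.29). It had been planned to print a probe only where its translation lies whole in a RefSeq protein. Protein sequences were not used here, so probes placed across an intron, an inner Cnot1 probe and the single probe of 1700121C10Rik are printed instead. The alternatives were other scalings, background correction, filters, the deposited table, slide and replicate blocks, variance models and leaving out each mouse.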

Additional observations from a re-analysis of the deposited data

How the results depend on the processing

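The 12 alternatives covered scaling, background, filter, input, slide, block and variance. A changed filter, the replicate block, and an intensity trend with robust variance cannot alter the difference of a probe, so its sign was fixed there. Under all 12 alternatives, 9 of the 13 flanking differences kept their sign. Gins3 kept it between -0.13 and -0.05. Among the 4 others, the first Arl2bp probe (-0.04 to 0.09), Ccdc113 (-0.02 to 0.05) and the Cnot1 probe across an intron (-0.06 to 0.01) lay near 0. The second Arl2bp probe, at -0.12 in the main analysis, ranged from -0.16 to 0.008. It turned to 0.008 with slide as a fixed block and on slide 2 alone, which give the same estimate. Only slide 2 carried both genotypes, so both settings rest on WT replicate 3 against Prss54KO replicates 1 and 2. The number of probes past an adjusted p of 0.05, 0 in the main analysis, was 1 with normexp, 1 with a filter on all 6 arrays, 1 with slide as a fixed block and 2 with an intensity trend and robust variance. Prss54 passed with normexp (-1.54, adjusted p 0.00516), with the filter on all 6 arrays (-1.56, adjusted p 0.0486) and with trend and robust variance (-1.56, adjusted p 0.00955), all by limma. Without a filter 41174 probes were tested, where the main analysis had 28913. The 926 probes at an unadjusted p under 0.05 became 1672 without a filter and 1509 with array weights. With a mouse left out they numbered between 578 (without WT replicate 1) and 1803 (without WT replicate 3). The 2257 probes without overlap became 3495 without a filter, 17079 on slide 2 alone, which has 1 WT and 2 Prss54KO mice, and 3639 to 6632 with a mouse left out. The cause of these shifts was not tested, beyond fewer mice making an overlap rarer and more probes being counted without a filter.

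Deviations of same-numbered mice from their genotype mean correlated at -0.04, 0.02 and -0.15 over probes. The highest such correlation between a WT and a Prss54KO mouse was 0.16, for WT replicate 3 and Prss54KO replicate 1, which shared slide 2. With 3 mice per genotype, centred on their own mean, these values cannot exclude a pairing by replicate number. With the replicate block, 0 probes passed the adjusted threshold and 1129 the unadjusted one, and 0 other probes of the window passed the adjusted one. Prss54 had -1.56 (limma adjusted p 0.911), a difference that a balanced block cannot change.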
